A study of Mus musculus with 8 samples.

Results

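The liver makes most of the complement and coagulation proteins that circulate in plasma, and 45 of their genes were followed here in mouse liver under a high-salt diet. The genes were taken from a given list by symbol and all 45 were found, among 24317 genes in the count table. The list holds 22 complement genes and 23 coagulation genes, the latter with the inhibitors and fibrinolysis genes that go with them. RNA of whole liver was sequenced in 8 libraries from C57BL/6 mice. The normal group of 4 libraries received normal chow, and the high-salt group of 4 received chow containing 6% NaCl over 6 weeks. The groups shared strain and tissue, and the labels name no genetic change in either. Age and sex are not given in the labels. Nothing in the labels ties a library to an animal of its own, so the p-values cover the spread between these samples, which may be technical. The diet label set the groups, although the titles of the high-salt samples start with N, and swapped labels would reverse all directions given here. Coordinates are in GRCm38.

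Complement is a cascade of plasma proteases and binding proteins that tags and lyses targets. The classical route starts with C1 and the lectin route with mannose-binding lectins and their proteases. Both lead to a C3 convertase, and cleavage of C3 and then of C5 opens the terminal route, in which C6, C7, C8 and C9 form the membrane attack complex. Coagulation is a further cascade, in which vitamin K-dependent zymogens and their cofactors lead to thrombin, and thrombin turns fibrinogen into fibrin. Antithrombin, protein C and protein S restrain it, and plasmin dissolves the clot. Hepatocytes secrete nearly all of these proteins, and many of the genes respond to interleukin-6 in the acute-phase response. The C1q chains differ in that macrophages, in liver the Kupffer cells, are a main source.

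Counted reads ranged from 16620368 to 18639685 per library. Levels are given as CPM, counts over a library size scaled by the trimmed mean of M values (TMM). All 10 hepatocyte marker genes were measured, with summed levels of 137474 to 155173 CPM on normal chow and 138711 to 146676 CPM on high salt. Of the 10, edgeR and limma-voom called Tat, lower in high salt, and DESeq2 called Tat and Cps1. Of all genes that each tested, edgeR called 0.300%, limma-voom 0.127% and DESeq2 0.979%. The 12 Kupffer cell markers summed to 775 to 837 CPM on normal chow and 725 to 883 CPM on high salt. Of the 12, edgeR called 0, limma-voom 0 and DESeq2 1 (Marco), and 3 had an unadjusted p below 0.05 by edgeR. The 7 tested B and plasma cell markers had positive log2 fold changes (median 1.47), and edgeR, limma-voom and DESeq2 called 0, with 2 at an unadjusted p below 0.05 by edgeR. Over all tested genes 10.9% had such a p in either direction. The B and plasma cell list summed to 21.3 to 60.9 CPM on normal chow and 28.0 to 300.3 CPM on high salt, with the highest value in high salt 2. Its part in the results was not tested. Xist, the RNA that silences 1 X chromosome in female cells, stood between 579 and 777 CPM in every library. Normal chow 2 stood apart from the other libraries in Cyp1a1, the dioxin-inducible cytochrome P450, at 2019 CPM against 0.586 to 2.76 CPM in the other 7.

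None of the 45 genes passed the test between the diets. The test was edgeR's quasi-likelihood test with Benjamini-Hochberg adjustment over 13341 genes, with 0.05 as the limit on the adjusted p. Of all tested genes 0.300% were called, 20 higher and 20 lower in high salt. At an unadjusted p below 0.05 there were 7 of the 45, all lower in high salt and none higher, where 5.60% of all tested genes were lower and 5.33% higher at that level. In order of p they were Hc, F7, Masp2, Cfi, Pros1, C9 and F9. On the TMM scale the 4 high-salt libraries all lay below the 4 normal chow libraries for 7 of the 45, namely Hc, Masp2, C9, F9, C1s1, Serping1 and Serpind1. The reverse was seen for 0 of the 45, and over all tested genes the shares were 3.37% and 2.98%. limma-voom called 0 of the 45. DESeq2, which called 0.979% of the genes it tested, called 1 of the 45, Hc, at an adjusted p of 0.0355. In the authors' deposited table Hc was the 1 gene of the 45 with an adjusted p below 0.05, at 0.0408. The deposited log2 fold changes lie close to those of the DESeq2 fit, with -0.2484 for Hc in both. The deposited values are therefore not an independent source.

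The differences that the data leave room for were small for most of these genes. The 95% interval of the fold change lay within 1.5-fold in both directions for 41 of the 45, compared with 67.1% of all tested genes. It lay within 1.25-fold for 26 of the 45, compared with 30.3% of all tested genes. These bounds were chosen after the values were seen. The comparison with all tested genes was not matched for level, and all 23 coagulation genes had a normal chow mean of 75.9 CPM or more. The 4 genes with wider intervals were all genes of the terminal complement route, C6, C8a, C8b and C9. Only C8a had an interval that reached past 2-fold, up to a log2 fold change of 1.31.

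**Figure D1:**
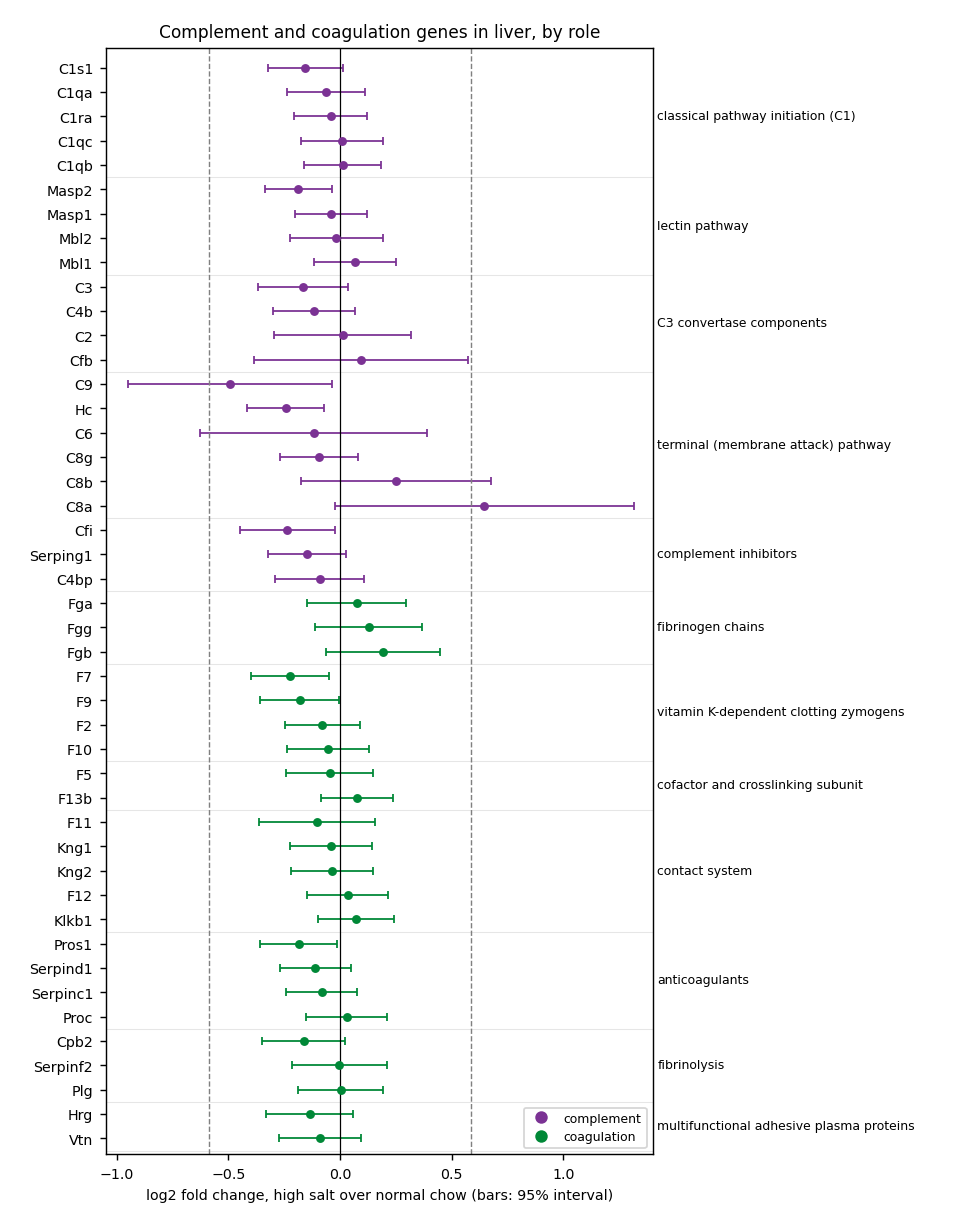
Log2 fold change of high salt over normal chow for each of the 45 genes, grouped by role, with 95% intervals from the edgeR fit (4 libraries per diet). Dashed lines mark 1.5-fold in each direction. Most points lie between the dashed lines, C8a lies beyond the upper one, none passed the adjusted threshold, and the intervals of C6, C8a, C8b and C9 cross a dashed line.

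The 45 genes together made up 4.67% ± 0.384 of all counts in normal chow and 4.76% ± 0.172 in high salt (mean ± SD, n = 4 each). On the TMM scale the order of the means was the other way round, with summed levels of 47762 ± 4113.8 CPM and 46652 ± 854 CPM, and without normal chow 1 the first was 46064 CPM. Levels of different genes were compared per kilobase of exon. C3, the protein on which all complement routes converge, was first in normal chow at 2015 CPM per kilobase. The fibrinogen chains Fga, Fgg and Fgb followed at 1509, 1364 and 1265 CPM per kilobase, and the mean ± SD ranges of the 3 chains overlapped one another. Next came Vtn, the adhesive protein vitronectin, at 1024, Kng1, a kininogen, at 938, Mbl2 at 712 and Plg, plasminogen, at 685 CPM per kilobase. At the other end were C6 at 7.32, C2 at 1.46 and Cfb at 0.720 CPM per kilobase. Only 2 of the 45 moved by more than 5 places when the longest transcript was used for the length. With that length Kng1, at 1352 CPM per kilobase, stood above Fgb, at 1265 CPM per kilobase. The whole range is shown in the plot of levels per length.

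**Figure D2:**
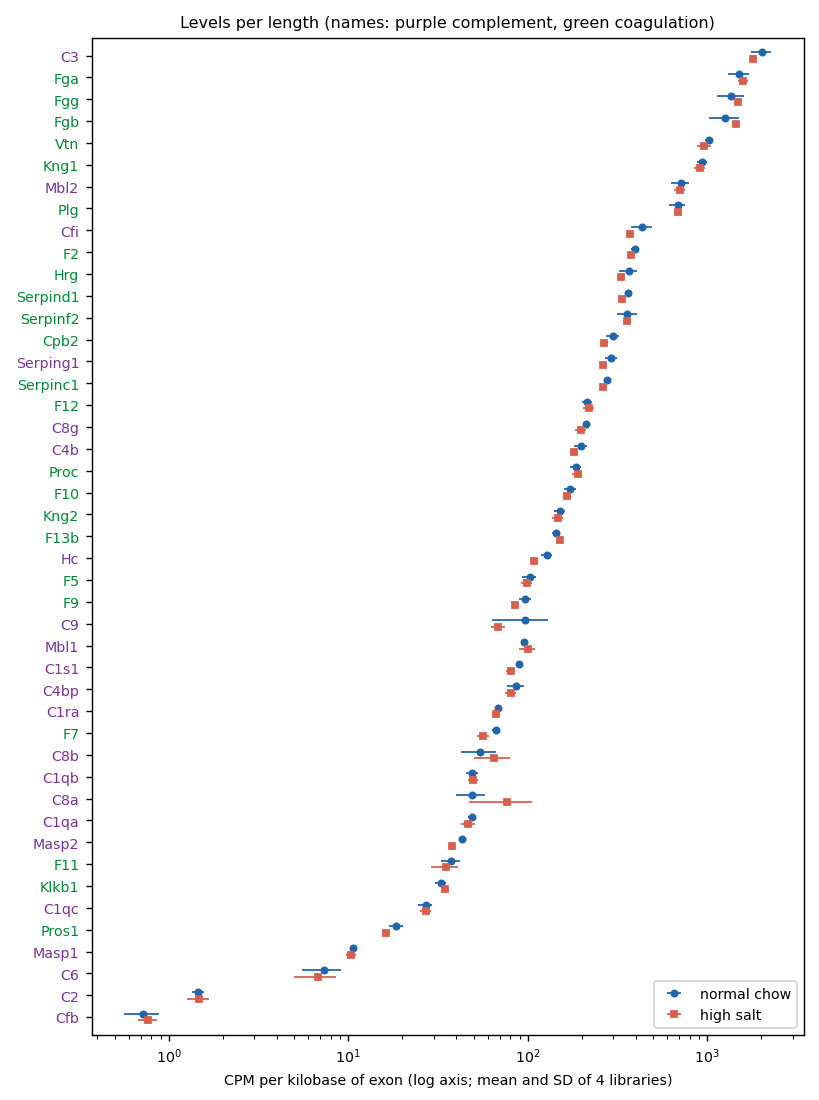
Level of each of the 45 genes per kilobase of exon on a log axis, as mean and SD of 4 libraries, normal chow as circles and high salt as squares. C3 and the fibrinogen chains are at the top, C6, C2 and Cfb at the bottom, and the 2 diets lie close together for nearly every gene.

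The low places of C2 and Cfb rest on an uncertain count. C2 cleaves C3 in the classical and lectin convertases and factor B does so in the alternative convertase. The genes are 0.085 kb apart on chromosome 17, and in GENCODE M21 the gene model Gm20547 shares 79.5% of the exon bases of Cfb and 42.8% of those of C2 on the same strand. The sources used here do not give how reads that fit both models were assigned, and Gm20547 was not analysed here. Cfb stood at 2.03 ± 0.442 CPM in normal chow and 2.17 ± 0.262 in high salt, and C2 at 5.65 ± 0.465 and 5.69 ± 0.791 CPM (mean ± SD, n = 4 each).

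Among the genes that start the classical route, none of the 5 passed the test. C1qa, C1qb and C1qc encode the chains of C1q, which binds antibody on a target, and C1ra and C1s1 encode the proteases bound to it. C1qa, given as the anchor of this group, had 52.5, 52.0, 47.2 and 51.4 CPM in normal chow libraries 1 to 4 and 47.5, 49.0, 43.9 and 53.9 CPM in high-salt libraries 1 to 4. The ranges overlapped, with the highest and the lowest value both in high salt (log2 fold change -0.064 ± 0.081, SE). The mean levels of C1qb were 53.5 ± 4.14 and 54.0 ± 3.17 CPM in normal chow and high salt, and those of C1qc 52.1 ± 4.75 and 52.4 ± 3.72 CPM. In a bulk sample fewer cells of a type and less RNA per cell cannot be told apart.

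C1s1 (chr6:124530345-124542359) was measured at 266, 282, 292 and 281 CPM on normal chow and 241, 263, 238 and 263 CPM on high salt. Every high-salt library lay below every normal chow library, with -0.16 ± 0.078 for the log2 fold change and an adjusted p of 0.494. Its partner C1ra, 6.901 kb away on chromosome 6, showed no such separation, at 203 ± 7.01 and 198 ± 10.1 CPM. C1s1 shares 18.4% of its exon bases with an antisense gene, Gm16567, and the sources used here do not give the strand setting of the counting. The near-identical copies C1rb and C1s2 stood below 1 CPM in every library.

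The lectin route gave 1 of its 4 genes at an unadjusted p below 0.05. Masp2 (chr4:148602554-148615499) encodes the protease that cleaves C4 and C2 once mannose-binding lectin has bound sugar on a target. It had 141, 136, 143 and 147 CPM in normal chow libraries 1 to 4 and 122, 125, 125 and 126 CPM in high-salt libraries 1 to 4. The ranges did not overlap and the spread within high salt was narrow (log2 fold change -0.19 ± 0.070, SE, unadjusted p = 0.0178 by edgeR's quasi-likelihood test, adjusted p = 0.337). The unadjusted p stayed below 0.05 with each of the 8 libraries left out in turn. Masp2 shares 54.9% of its exon bases with Tardbp on the opposite strand. Tardbp, an RNA-binding protein gene expressed in all tissues, stood at 77.9 ± 11.5 CPM on normal chow and 65.4 ± 4.74 CPM on high salt (log2 fold change -0.25 ± 0.10, SE, adjusted p = 0.385). The part of Tardbp reads in the Masp2 value was not tested.

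The other 3 lectin genes overlapped between the diets. Masp1, whose protease activates MASP-2, averaged 105 ± 4.14 and 102 ± 6.05 CPM. Mbl1 and Mbl2 encode the 2 mannose-binding lectins of the mouse. Mbl1 averaged 149.5 ± 5.48 CPM on normal chow and 157 ± 15.4 CPM on high salt, and Mbl2 776 ± 86.5 and 766 ± 57.4 CPM.

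C3 (chr17:57203970-57228136) was the complement gene with the most reads, and it did not pass the test. Its levels were 12310.1, 10225, 9127 and 9799 CPM in normal chow libraries 1 to 4 and 9359.5, 9269, 9299 and 9024 CPM in high-salt libraries 1 to 4. Normal chow 1 was highest and normal chow 3 lay inside the high-salt range, so the diets overlapped. The log2 fold change was -0.17 ± 0.094 (SE) with an adjusted p of 0.563, and it was -0.073 without normal chow 1. C4b, which provides the C4 part of the convertase, averaged 1123 ± 93.4 and 1035 ± 50.2 CPM. Its near-identical copy C4a stood at 3.92 ± 1.22 and 3.24 ± 1.18 CPM, and reads of the 2 genes may be split between them.

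The terminal route held both the smallest p and the widest spread. Hc (chr2:34983331-35061438) encodes C5, whose cleavage releases the anaphylatoxin C5a and starts the membrane attack complex. It had 881, 764, 802 and 756 CPM in normal chow libraries 1 to 4 and 674, 695, 660.0 and 678 CPM in high-salt libraries 1 to 4. All high-salt values lay below all normal chow values, by a log2 fold change of -0.24 ± 0.080 (SE, unadjusted p = 0.00940 and adjusted p = 0.267 by edgeR's quasi-likelihood test). The unadjusted p was below 0.05 in all 8 fits that left out 1 library, with log2 fold changes between -0.27 and -0.19, and the adjusted p of those fits ran from 0.252 to 0.468.

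C9 (chr15:6445327-6498751) encodes the subunit that polymerises into the pore. Its levels were 373, 196, 219.7 and 197 CPM in normal chow libraries 1 to 4 and 194, 182, 167 and 158 CPM in high-salt libraries 1 to 4. The diets did not overlap, but only narrowly, and normal chow 1 stood far above the other 7. The log2 fold change was -0.49 ± 0.20 (SE, adjusted p = 0.425) with all libraries and -0.22 without normal chow 1.

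C8a and C8b encode the alpha and beta chains of C8 and lie 11.1 kb apart on chromosome 4, on opposite strands with their 3' ends towards each other. C8a had 228, 163, 156 and 165 CPM in normal chow libraries 1 to 4 and 346, 392, 178 and 196 CPM in high-salt libraries 1 to 4. High salt 1 and 2 were well above all other libraries, while high salt 3 and 4 lay among the normal chow values. Its log2 fold change of 0.65 ± 0.29 (SE, unadjusted p = 0.0564 and adjusted p = 0.471 by edgeR's quasi-likelihood test) was the largest positive value among the 45 and did not pass. It was 0.43 without high salt 2 and 0.81 without high salt 3.

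C8b is shown for its position beside C8a and was chosen after its values were seen. It had 182, 139.5, 118 and 115 CPM on normal chow and 191, 204, 132 and 133 CPM on high salt. The 3 highest libraries were high salt 2, high salt 1 and normal chow 1, in the same order as for C8a. C8g, the gamma chain, lies on chromosome 2 and did not share this order, at 305, 314, 311 and 331 CPM on normal chow and 291, 296, 324 and 269.9 CPM on high salt. C6, which joins C5b in the first step of assembly, had 34.0, 27.1, 24.6 and 18.5 CPM on normal chow and 29.4, 29.2, 17.5 and 19.8 CPM on high salt. Its 3 highest libraries were also normal chow 1, high salt 1 and high salt 2, and its log2 fold change was -0.12 ± 0.22 (SE).

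**Figure D3:**
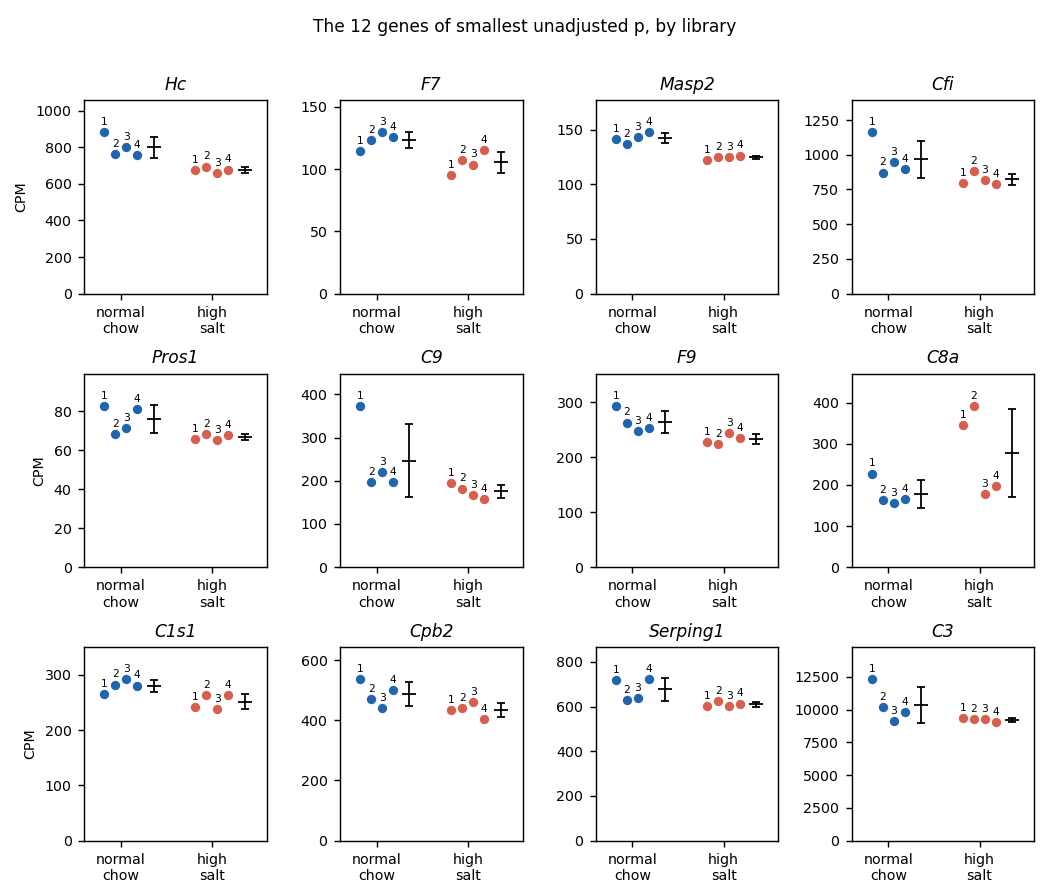
Level in CPM of the 12 genes with the smallest unadjusted p, each library as a numbered point, with the mean and SD of 4 libraries beside each group. Hc, Masp2, C9, F9, C1s1 and Serping1 show no overlap between the diets, normal chow 1 is far above the rest in C9, and high salt 1 and 2 are above the rest in C8a.

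The promoter windows of C8a and C8b, from 250 bases before to 50 bases after the RefSeq start (GRCm38.p6), are shown since the 2 genes share the order of their highest libraries. The C8b window is chr4:104766067-104766366 on the plus strand and the C8a window chr4:104876349-104876648 on the minus strand. Capitals mark matches to GTTAAT, a core of the site of the hepatocyte factor HNF1, or to TTCNNNGAA, the core bound by STAT factors, on either strand.
C8a: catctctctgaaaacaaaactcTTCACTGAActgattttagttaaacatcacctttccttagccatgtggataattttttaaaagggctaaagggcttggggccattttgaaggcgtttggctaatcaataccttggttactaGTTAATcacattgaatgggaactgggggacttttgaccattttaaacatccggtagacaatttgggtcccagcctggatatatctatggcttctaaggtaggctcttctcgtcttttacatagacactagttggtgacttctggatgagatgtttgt
C8b: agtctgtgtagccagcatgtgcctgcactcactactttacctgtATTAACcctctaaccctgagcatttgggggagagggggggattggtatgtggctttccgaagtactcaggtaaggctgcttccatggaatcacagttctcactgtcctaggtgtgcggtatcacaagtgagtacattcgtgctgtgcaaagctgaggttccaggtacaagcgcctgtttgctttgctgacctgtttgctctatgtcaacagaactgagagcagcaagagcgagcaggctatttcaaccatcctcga
Both windows hold GTTAAT or its reverse complement, at -107 in C8a and at -206 in C8b, counted from the start. The C8a window alone holds the STAT core, at -228. A match is a run of letters and says nothing of binding.

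The complement inhibitors gave values below normal chow for all 3 genes, of which none passed the test. Cfi (chr3:129835884-129875332) encodes factor I, the protease that inactivates C3b and C4b. It had 1161, 872, 946 and 894 CPM in normal chow libraries 1 to 4 and 794, 882, 819.5 and 792 CPM in high-salt libraries 1 to 4. High salt 2 reached above normal chow 2, and normal chow 1 was the highest of the 8. The log2 fold change was -0.24 ± 0.099 (SE, adjusted p = 0.410) and -0.14 without normal chow 1.

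Serping1 (chr2:84765387-84775444) encodes the C1 inhibitor, which also restrains the contact system. It stood at 720.4, 628, 637 and 721 CPM on normal chow and 602, 624, 601 and 613 CPM on high salt. The high-salt values all lay below those of normal chow, with high salt 2 just under normal chow 2 (log2 fold change -0.15 ± 0.081, SE, adjusted p = 0.539). C4bp, the C4b-binding protein, averaged 579 ± 60.2 and 543 ± 37.5 CPM.

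The 3 fibrinogen chains are the most abundant coagulation genes per kilobase of exon in normal chow, though Kng1 passes Fgb when the longest transcript gives the length. They are assembled into 1 protein, and the genes lie within 1 stretch of chromosome 3, with gaps of 11.026 kb between Fgg and Fga and 6.513 kb between Fga and Fgb. Fga had 4998, 3629, 4752 and 4791 CPM in normal chow libraries 1 to 4 and 5004, 4437, 4655 and 5040.4 CPM in high-salt libraries 1 to 4. Fgb had 5773, 3684, 4596 and 5226 CPM on normal chow and 5617, 5823, 5381 and 5186 CPM on high salt. Fgg had 3334, 2257, 2676 and 3152 CPM on normal chow and 3225, 3204, 3016 and 3031 CPM on high salt. All 3 chains were lowest in normal chow 2, the library with the high Cyp1a1 level, and the diets overlapped for each. The part of that library's state in these values was not tested beyond leaving it out.

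None of the fibrinogen chains passed the test. The log2 fold changes were 0.19 ± 0.12 for Fgb, 0.13 ± 0.11 for Fgg and 0.075 ± 0.10 for Fga (± SE), with adjusted p from 0.605 to 0.854. They stayed above 0 under every scaling tried. Without normal chow 2 they were 0.076, 0.024 and -0.025, so that the sign of Fga turned. The summed level of the 3 chains was 14104, 9569.8, 12024 and 13168 CPM on normal chow and 13846, 13464, 13052 and 13258 CPM on high salt.

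The promoter windows of the 3 chains are shown because the genes were lowest in the same library. They are RefSeq windows of GRCm38.p6, at chr3:83025903-83026202 on the plus strand for Fga, chr3:83049814-83050113 on the minus strand for Fgb and chr3:83007474-83007773 on the plus strand for Fgg. Capitals mark matches on either strand to GTTAAT (HNF1 core), TTGCNNAA (a C/EBP core), TTCNNNGAA (STAT core) or CTGGGAA (the type II interleukin-6 response element), and no 2 matches overlapped in these windows.
Fga: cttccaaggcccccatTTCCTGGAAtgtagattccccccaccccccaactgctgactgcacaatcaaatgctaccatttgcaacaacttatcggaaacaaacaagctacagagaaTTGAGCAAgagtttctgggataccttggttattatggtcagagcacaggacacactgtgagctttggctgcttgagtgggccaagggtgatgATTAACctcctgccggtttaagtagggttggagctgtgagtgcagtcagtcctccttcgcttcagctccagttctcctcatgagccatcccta
Fgb: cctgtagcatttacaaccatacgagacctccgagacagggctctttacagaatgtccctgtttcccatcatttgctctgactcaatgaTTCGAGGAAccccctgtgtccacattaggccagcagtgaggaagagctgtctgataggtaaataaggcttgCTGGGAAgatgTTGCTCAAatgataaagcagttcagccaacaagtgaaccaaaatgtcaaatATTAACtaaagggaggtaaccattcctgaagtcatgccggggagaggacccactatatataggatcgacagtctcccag
Fgg: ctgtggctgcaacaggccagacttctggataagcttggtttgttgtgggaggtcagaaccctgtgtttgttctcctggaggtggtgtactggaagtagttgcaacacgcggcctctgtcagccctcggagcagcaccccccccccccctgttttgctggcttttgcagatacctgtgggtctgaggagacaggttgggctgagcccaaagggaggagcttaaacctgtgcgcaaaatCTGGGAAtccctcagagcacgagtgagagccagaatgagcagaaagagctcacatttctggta
The Fgb window held all 4 motifs, with CTGGGAA at -91 and the C/EBP core at -80. The Fga window held the HNF1, C/EBP and STAT letters at -43, -135 and -234. In the Fgg window CTGGGAA was found at -13 and no other of the 4.

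Over the whole list, RefSeq windows were found for 35 of the 45 genes, in 37 windows. GTTAAT was present in 27.0% of these windows, against 7.10% of all 32851 promoter windows of the same length. TTGCNNAA was present in 35.1% against 10.8%, TTCNNNGAA in 21.6% against 8.30%, and CTGGGAA in 21.6% against 11.1%. All of these were searched on both strands. CAAAGTCCA, a site of HNF4, was in 0 of the 37 windows and in 0.475% of all. TATAAA, searched on the coding strand, was in 10.8% against 8.32%. The C/EBP core was in 9 of the 20 coagulation windows and in 4 of the 17 complement windows. The other motifs lay closer between the sets. GTTAAT was in 5 coagulation and 5 complement windows, and TATAAA in 2 and 2. TTCNNNGAA was in 5 and 3, as was CTGGGAA. These are counts of letters with no test.

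**Figure D4:**
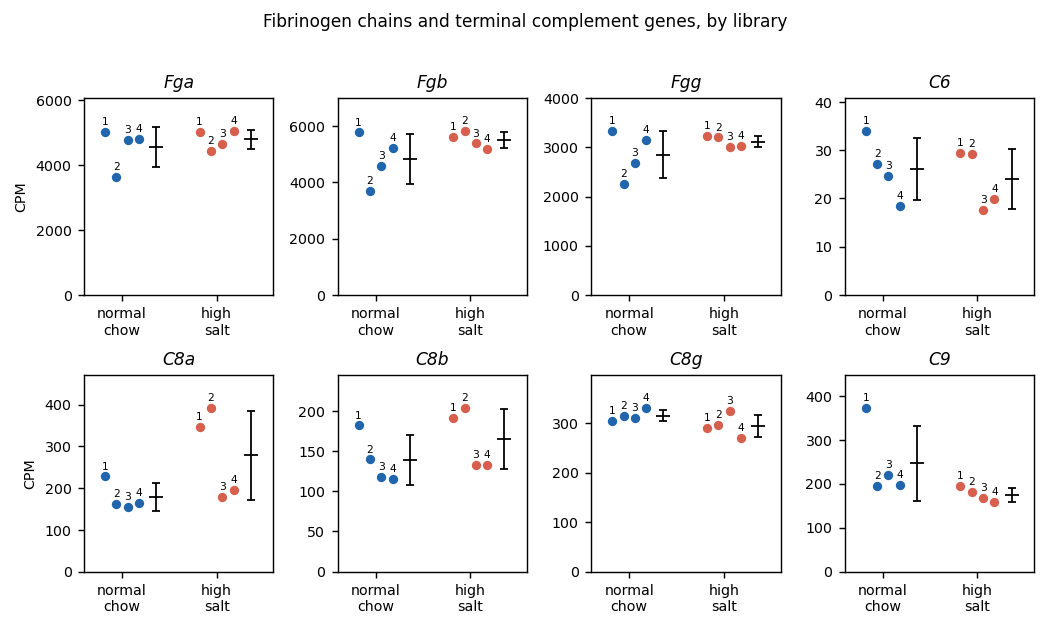
Level in CPM of the fibrinogen chains and the terminal complement genes C6, C8a, C8b, C8g and C9, each library as a numbered point, with mean and SD of 4 libraries beside each group. The fibrinogen chains are lowest in normal chow 2, and C8a and C8b are highest in high salt 2, high salt 1 and normal chow 1.

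Of the 4 vitamin K-dependent clotting zymogens, all had a negative log2 fold change, 2 had an unadjusted p below 0.05 and none passed the test. F7 (chr8:13026034-13035809) encodes factor VII, which starts clotting with tissue factor. Its levels were 114, 123, 129 and 126 CPM in normal chow libraries 1 to 4 and 95.1, 107, 104 and 116 CPM in high-salt libraries 1 to 4. High salt 4 lay just above normal chow 1, and the other high-salt values were below the whole normal chow range. The log2 fold change was -0.23 ± 0.081 (SE, unadjusted p = 0.0153 and adjusted p = 0.322 by edgeR's quasi-likelihood test), and the unadjusted p stayed below 0.05 with each of the 8 libraries left out in turn.

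F9 (chrX:59999464-60030759) encodes factor IX, the protein lacking in haemophilia B, and lies on chromosome X. It had 293, 263, 247 and 253 CPM on normal chow and 228, 225, 244 and 236 CPM on high salt. The ranges did not overlap, though high salt 3 was close to normal chow 3 (log2 fold change -0.18 ± 0.082, SE, adjusted p = 0.444). It was -0.13 without normal chow 1. F10, factor X, lies 1.498 kb from F7 on chromosome 8 and overlapped between the diets at 471 ± 38.7 and 454 ± 23.8 CPM. F2, prothrombin, stood at 1819.7 ± 91.8 CPM on normal chow and 1722 ± 72.4 CPM on high salt.

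F5 encodes the cofactor of factor Xa, and its mean was 761 ± 66.1 CPM on normal chow and 736 ± 53.0 CPM on high salt. F13b, the carrier subunit of the enzyme that crosslinks fibrin, averaged 362 ± 14.9 and 382 ± 12.8 CPM. Both overlapped between the diets, as did the 5 genes of the contact system, which starts clotting on charged surfaces and releases bradykinin. Their log2 fold changes ran from -0.10 for F11, factor XI, to 0.071 for Klkb1, plasma prekallikrein. With 1 library left out F11 ran from -0.22 without high salt 1 to -0.039 without normal chow 3, and Klkb1 from 0.015 without normal chow 2 to 0.10 without normal chow 1. F12, factor XII, averaged 419 ± 27.4 and 429 ± 30.0 CPM. The kininogen Kng1 averaged 3049 ± 195 and 2963 ± 216 CPM and its near-identical neighbour Kng2 413 ± 29.9 and 403 ± 27.1 CPM, and reads of the 2 may be split between them. Klkb1 shares 43.2% of its exon bases with Gm45753 on the same strand, a gene model with reads in 1 library at 0.121 CPM.

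The anticoagulants gave 1 of 4 genes at an unadjusted p below 0.05 and none past the test. Pros1 (chr16:62854307-62929346) encodes protein S, the cofactor of activated protein C. It had 82.7, 68.1, 71.4 and 81.2 CPM in normal chow libraries 1 to 4 and 65.8, 68.1, 65.1 and 67.8 CPM in high-salt libraries 1 to 4. Normal chow 2 lay within the high-salt range, and normal chow 1 and 4 were highest. The log2 fold change was -0.19 ± 0.080 (SE, adjusted p = 0.419). The unadjusted p stayed below 0.05 with 3 of the 8 libraries when each was left out in turn, and the same count was 3 for F9, 4 for Cfi and 5 for C9.

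Serpinc1 (chr1:160978585-161005863) encodes antithrombin, the main inhibitor of thrombin and factor Xa. Its levels were 2486, 2256, 2389 and 2343 CPM on normal chow and 2191, 2279.7, 2235 and 2238 CPM on high salt. High salt 2 lay above normal chow 2, so the groups overlapped, and the log2 fold change was -0.083 ± 0.074 (SE, adjusted p = 0.752). Serpinc1 shares 34.4% of its exon bases with Zbtb37 on the opposite strand, a gene at 8.68 ± 1.14 and 10.6 ± 0.847 CPM. Serpind1, heparin cofactor II, was lower in every high-salt library, at 796 ± 14.2 CPM on normal chow and 737 ± 21.4 CPM on high salt, with an adjusted p of 0.640. Proc, protein C, averaged 460.0 ± 32.9 and 469 ± 30.2 CPM.

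In fibrinolysis, Plg had a mean of 2540.2 ± 252 CPM on normal chow and 2546 ± 118 CPM on high salt, and Serpinf2, the plasmin inhibitor alpha-2-antiplasmin, 834 ± 105 and 832 ± 47.4 CPM. Cpb2 (chr14:75242287-75283551) encodes the carboxypeptidase that protects fibrin from plasmin. It had 535, 472, 440.1 and 501 CPM on normal chow and 435, 441, 459 and 405 CPM on high salt. High salt 3 exceeded normal chow 3, and the log2 fold change was -0.16 ± 0.086 (SE, adjusted p = 0.521). Of the adhesive proteins, Vtn averaged 2079.7 ± 92.7 and 1954 ± 174 CPM, and Hrg, histidine-rich glycoprotein, 729 ± 82.1 and 664 ± 21.7 CPM. Neither passed the test.

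The comparison of complement with coagulation genes is by counts, medians and summed levels. Over all tested genes 6498 of 13341, or 48.7%, had a negative log2 fold change. Of the 22 complement genes 15 had a negative log2 fold change and 4 an unadjusted p below 0.05, all lower. Of the 23 coagulation genes 15 had a negative log2 fold change and 3 an unadjusted p below 0.05, all lower. The median log2 fold change was -0.078 for complement, -0.047 for coagulation and 0.0060 for all tested genes. Summed levels were 17236 ± 1810.1 CPM on normal chow and 15623 ± 303 CPM on high salt for complement, and 30525 ± 2816 and 31029 ± 631 CPM for coagulation (mean ± SD, n = 4). A few genes made up much of these sums. C3 alone held 10365 CPM on normal chow and 9238 CPM on high salt. The fibrinogen chains held 12217 and 13405 CPM, and the mean sum of every other role group of coagulation genes was lower in high salt on this TMM scale. As shares of all counts, the contact system, fibrinolysis and cofactor groups were instead higher in high salt. The anticoagulant, vitamin K-dependent and adhesive groups were still lower. Complement genes made up 1.69% of all counts on normal chow and 1.59% on high salt, and coagulation genes 2.98% and 3.17%. Without normal chow 1 the normal chow mean for complement was 16352 CPM, which took the difference from -1613 to -729 CPM. Without normal chow 2 the normal chow mean for coagulation was 31774 CPM, and the difference turned from 504 to -745 CPM. With any other library left out it lay between 260.0 CPM (without high salt 2) and 1317 CPM (without normal chow 1). The difference between the 2 sets was not tested.

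The scaling of the libraries moved these counts. The TMM factors were 0.966 to 0.999 in normal chow and 1.00 to 1.05 in high salt, so every high-salt library was scaled further down than every normal chow library. With total counts as the scale, the medians were -0.018 for complement, 0.015 for coagulation and 0.066 for all tested genes. Negative log2 fold changes were then 12 of 22 for complement and 10 of 23 for coagulation, against 34.7% of all tested genes. Of the 7 genes with an unadjusted p below 0.05 only Hc then kept one, at 0.0427 by edgeR's quasi-likelihood test. Fgb and C8a, at 0.0460 and 0.0487, were then below 0.05 on the higher side. The separation of the libraries also moved. Per total counts every high-salt library still lay below every normal chow library for Hc and Masp2. The diets then overlapped for C9, F9, C1s1, Serping1 and Serpind1, and F13b was higher in every high-salt library. On that scale the shares over all tested genes were not counted, either for an unadjusted p below 0.05 or for separation. These genes therefore cannot be set against all tested genes there.

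Some libraries stood apart across many of the 45 genes. Normal chow 1 was the highest of the 8 libraries for 9 complement and 7 coagulation genes, while normal chow 2 was the highest for none and the lowest for 6 coagulation and 2 complement genes. High salt 3 was the lowest for 9 complement and 4 coagulation genes. The SD on the log2 scale was larger in normal chow for 29 of the 45 genes, or 64.4%, against 53.7% of all tested genes. Without normal chow 1 these shares were 60% and 46.8%. With both normal chow 1 and normal chow 2 left out, 4 complement genes and 1 coagulation gene had an unadjusted p below 0.05 and none passed the test. That fit was chosen after seeing the data, and it called 0.0868% of all genes it tested. The share of all tested genes at an unadjusted p below 0.05 was not counted in it.

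**Figure D5:**
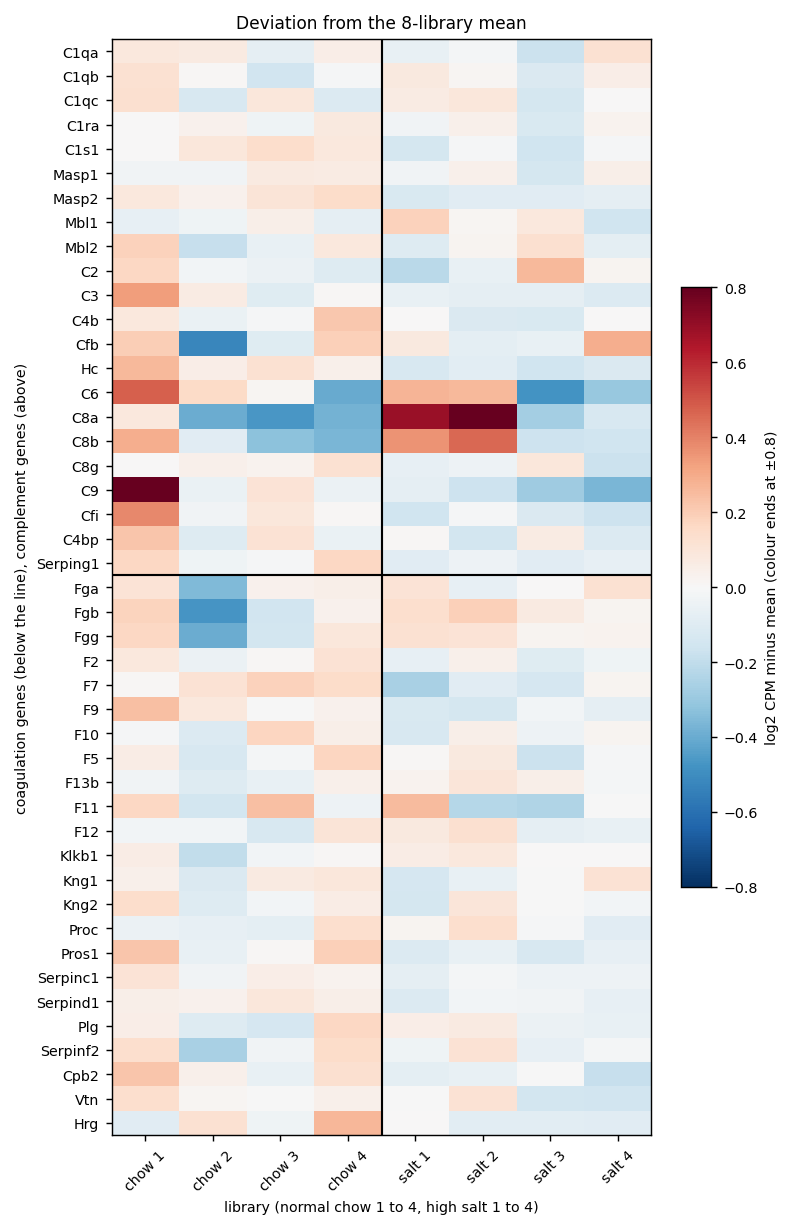
Deviation of each library from the 8-library mean on the log2 CPM scale, for complement genes (above the line) and coagulation genes (below), in normal chow libraries 1 to 4 and high-salt libraries 1 to 4. Normal chow 1 is high in C9, C3 and Cfi, normal chow 2 is low in the fibrinogen chains, and high salt 1 and 2 are high in C8a and C8b.

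The remaining genes of these pathways gave 0 calls by edgeR and limma-voom, and 2 by DESeq2, among them Mcfd2. DESeq2 called 0.979% of all genes it tested and edgeR 0.300%. Of 23 further complement genes with enough reads, 0 were called by edgeR's quasi-likelihood test and 2 had an unadjusted p below 0.05, both lower, with a median log2 fold change of -0.030. These were Fcna, a ficolin that recognises sugars, at 22.1 ± 4.33 and 16.8 ± 1.09 CPM, and Colec10, a collectin, at 83.4 ± 4.25 and 71.8 ± 6.35 CPM. Of 20 further coagulation and fibrinolysis genes 0 were called, 2 had such a p on the higher side and 3 on the lower side, and the median was -0.094. Over all tested genes 5.33% had such a p on the higher side and 5.60% on the lower side. Mcfd2, a cargo receptor subunit for factors V and VIII, stood at 251 ± 15.4 and 204 ± 19.0 CPM, and Ggcx, the carboxylase that modifies vitamin K-dependent factors, at 76.4 ± 4.89 and 66.3 ± 4.01 CPM.

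Acute-phase plasma proteins outside the 45 included 1 called gene of 20. Orm2, an acid glycoprotein, fell from 18.4 ± 3.71 CPM on normal chow to 6.08 ± 1.63 CPM on high salt (log2 fold change -1.60 ± 0.21, SE, adjusted p = 0.0192). DESeq2 called 3, Orm2 with Saa1 and Saa2, and limma-voom called Orm2 alone. Of all genes that each tested, DESeq2 called 0.979% and edgeR 0.300%. A further 7 of the 20 had an unadjusted p below 0.05 by edgeR on the lower side, against 5.60% of all tested genes. Among them were Saa1, serum amyloid A, with a log2 fold change of -0.83 ± 0.21 (SE), and Orm1, a relative of Orm2, at 669 ± 74.4 and 485 ± 98.7 CPM. Of 19 genes for transcription factors and cytokine signalling of liver plasma protein genes edgeR called 0, limma-voom 0 and DESeq2 1 (Il6ra). Of the 19, 2 had an unadjusted p below 0.05 by edgeR in either direction, against 10.9% of all tested genes. Il6ra, the interleukin-6 receptor, had 89.9 ± 15.3 and 60.2 ± 11.9 CPM (adjusted p = 0.186), and Cebpa, a C/EBP factor, 252 ± 26.1 and 316 ± 26.5 CPM (adjusted p = 0.204).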

How the data were processed

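The authors deposited raw counts, whole numbers per gene and library, as 1 table. HTSeq 0.6.0, HISAT2 2.1.0 and StringTie 1.3.2d are named, without roles, beside the build GRCm38 in the submitters' processing notes. Annotation release, strand setting and handling of multiply matching reads were not given in the sources used here. The same deposited table lists per gene, per the file headers, a linear fold, a log2 fold, a p-value and its adjusted form, used only for comparison.

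The counts were fitted with edgeR 4.0.16 in R 4.3.3 (TMM factors, filterByExpr, robust quasi-likelihood model of diet, two-sided), with Benjamini-Hochberg adjustment over 13341 genes of 8 libraries. The fitting was also run on simulated counts. Its outcome is not given here, so no limit on the size of change that could be called follows from it. Standard errors follow from each fold change and its F value, and intervals cover 95%. Alternatives were other scalings and filters, DESeq2 1.42.0, limma-voom (limma 3.58.1), a replicate block, each library left out, and, chosen after seeing the data, normal chow 1 and normal chow 2 both left out. Lengths came from the exon union in GENCODE M21 (GRCm38) and sequences from RefSeq.

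The members and the other gene lists were chosen with earlier results of these data known. Values in every library are given for the 12 members of smallest p and for C1qa, C3, Fga, Fgb, Fgg and Serpinc1, and of each other list for called genes and some of up to 3 of smallest p. Single values of 1 gene that this rule takes are not reported here. C6, C8b and C8g were added after their values were seen. Chi-square per degree of freedom between libraries of a diet ran from 7.23 to 26.4, so no 2 libraries were alike within counting noise and each was counted as 1 sample.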

Additional observations from a re-analysis of the deposited data

Results flagged for a closer look

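In 4 of 90 groups of 4 libraries, 1 library stood apart from the other 3 by more than Dixon's 95% limit, and chance alone gives about 1 in 20 such groups. In normal chow 1, C9 had 373 CPM and C8a had 228 CPM, both above the other normal chow libraries. Proc, the gene of protein C, had 509 CPM in normal chow 4, above the other 3. Hrg, the gene of histidine-rich glycoprotein, had 696 CPM in high salt 1, where the other high-salt libraries held 651 to 654 CPM.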

How the results depend on the processing

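Under the 17 alternatives 28 of the 45 genes kept the sign of their log2 fold change and 17 did not, none of the 17 being called. Among all genes 40 were called, and 238 were with DESeq2, 17 with limma-voom, 220 without a filter on low counts, 12 with normal chow 1 and normal chow 2 both left out, and 4 to 57 with 1 library left out (4 without normal chow 2, 5 without high salt 1, 11 without normal chow 3, 18 without high salt 2, 57 without normal chow 1). In the main fit replicate numbers were not used to pair libraries of the 2 diets. Deviations of same-numbered libraries correlated at -0.15, -0.20, 0.086 and 0.0051, and those of normal chow 1 and high salt 2 at 0.34. With 4 libraries per diet these values do not settle whether the numbers mark pairs. With a replicate block 11 genes were called. Of complement genes DESeq2 called 1. Shares of all tested genes at an unadjusted p below 0.05 were not counted for the alternatives. With the replicate block C8a and C8b had such a p on the higher side, and C9, Hc and Masp2 on the lower side. C8a also had such a p on the higher side with DESeq2 and with total counts, where the other complement genes counted were lower. The count of complement genes at such a p went from 4 to 7 with DESeq2 and 2 with total counts. For coagulation genes that count went from 3 to 5 with DESeq2, to 1 with the replicate block, with total counts and with both normal chow libraries left out, and to 1 to 4 with 1 library left out (1 without high salt 1 or high salt 4). Total counts called 21 genes higher and 11 lower, and turned C1ra to 0.019, F10 to 0.0074, F5 to 0.015, Kng1 to 0.020, Kng2 to 0.026, Masp1 to 0.021, Mbl2 to 0.043 and Serpinf2 to 0.059. Serpinf2 was also 0.0032 with limma-voom, 0.0028 with the replicate block and 0.0011 with the upper quartile. Plg was -0.0027 with DESeq2, -0.0056 without a filter and -0.027 with both normal chow libraries left out. That setting also gave 0.15 for C6, -0.00091 for Cfb, -0.0043 for Fga and -0.022 for Proc. With 1 library left out, signs differed within C1qb (-0.034 to 0.057), C1qc (-0.037 to 0.056), C2 (-0.080 to 0.073), C6 (-0.25 to 0.037), Cfb (-0.046 to 0.18), F12 (-0.010 to 0.075), F5 (-0.10 to 0.0048), Fga (-0.025 to 0.12), Kng2 (-0.081 to 0.0064), Mbl2 (-0.085 to 0.044), Plg (-0.041 to 0.063), Proc (-0.018 to 0.081) and Serpinf2 (-0.090 to 0.046). The cause was not tested. With 4 libraries per diet a small difference in a gene of wide spread, as in the terminal complement genes, cannot be told from none, and at 2.03 CPM Cfb has few reads.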
